A study of Mus musculus with 12 samples.

Results

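The 9 genes described here are, apart from Crabp1, regulators or markers of the growth and the rest of the hair follicle. They were taken by symbol from the deposited tables, and they are 9 of 7902 genes there and 9 of the 7638 genes tested. Shh, Msx2, Lhx2, Corin and Wif1 were read as 5 growth-phase genes, and Nfatc1, Fgf18 and Cd34 as 3 quiescence-associated genes. Crabp1 was kept apart as belonging to neither class. They were measured by bulk RNA sequencing of mouse skin in 12 libraries, 4 in each of 3 groups. Ctrl was control skin. Model was skin aged with D-galactose, a sugar used in excess to speed ageing, together with UVA/B light. M+NSPCC1 had the same ageing model and received NSPCC1, a grape seed extract. The sources used here give no strain, age, sex, body site, dose or time, nor whether each library came from its own animal. The p-values below therefore rest on the spread among these samples, part of which may be technical.

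Hair follicles pass through growth (anagen), regression (catagen) and rest (telogen). In rest, stem cells of the bulge are held quiet by bone morphogenetic protein (BMP) and fibroblast growth factor (FGF) signals and by transcription factors such as Nfatc1. In growth, Wnt signals from and to the dermal papilla start division in the hair germ, and the matrix that forms from it secretes Shh, divides rapidly and builds the hair shaft.

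All 5 growth-phase genes rose in Model against Ctrl skin, by 3.05 to 6.74 on the log2 scale, and all 3 quiescence-associated genes fell, by 1.81 to 2.33. In M+NSPCC1 against Model skin none of the 9 genes passed by edgeR; Shh was higher by 0.60 and Wif1 by 0.43 on the log2 scale without overlap between the groups, and DESeq2 called Shh. Values are given as CPM (estimated counts scaled by depth and by TMM factors), and a gene passed where edgeR's quasi-likelihood test gave a Benjamini-Hochberg adjusted p below 0.05. Of all genes tested in Model against Ctrl, 90.5% passed, 49.1% higher and 41.4% lower, so that 9 of 9 genes passing is near the background share. In size, from 3.29% (Msx2) to 10.9% (Lhx2) of tested genes changed by more than a growth-phase gene. For the quiescence-associated genes this share was 18.1% (Fgf18) to 28.35% (Nfatc1). The genes were chosen with their changes known. The directions and sizes of the members are therefore a description of these skins and not a mark of the chosen genes.

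Promoters are shown for Msx2 and Wif1, which rose in Model skin, and for Fgf18 and Cd34, which fell. They are the 250 bases before the start site in the RefSeq promoter table of GRCm38.p6 (the mm10 assembly), 5′ to 3′ on the strand of the gene. Capitals mark a motif match. The promoters searched here included those of 7 of the 9 genes. Among them the Corin window did not match the start of an annotated transcript. A gene left out of this search may still have an entry in the table.
Msx2: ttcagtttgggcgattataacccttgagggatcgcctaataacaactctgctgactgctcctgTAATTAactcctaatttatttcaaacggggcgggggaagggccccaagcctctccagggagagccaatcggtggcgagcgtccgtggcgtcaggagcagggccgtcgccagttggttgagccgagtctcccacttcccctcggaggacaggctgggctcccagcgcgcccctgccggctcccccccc
Wif1: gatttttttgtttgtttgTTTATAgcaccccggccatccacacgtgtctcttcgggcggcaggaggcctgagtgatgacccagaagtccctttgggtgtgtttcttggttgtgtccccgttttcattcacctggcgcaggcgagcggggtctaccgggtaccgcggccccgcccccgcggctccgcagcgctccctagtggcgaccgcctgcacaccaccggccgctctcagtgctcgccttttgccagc
Fgf18: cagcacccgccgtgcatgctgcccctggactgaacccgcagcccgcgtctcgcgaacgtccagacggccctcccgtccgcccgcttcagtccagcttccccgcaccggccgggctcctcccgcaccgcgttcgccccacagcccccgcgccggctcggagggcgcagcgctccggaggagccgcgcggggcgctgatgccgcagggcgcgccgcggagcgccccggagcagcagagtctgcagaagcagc
Cd34: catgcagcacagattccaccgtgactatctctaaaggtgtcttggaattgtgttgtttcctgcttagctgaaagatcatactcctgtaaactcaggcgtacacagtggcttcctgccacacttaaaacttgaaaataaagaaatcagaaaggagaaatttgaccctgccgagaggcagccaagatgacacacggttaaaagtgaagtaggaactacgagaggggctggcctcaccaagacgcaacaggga
The Msx2 window lies at chr13:53472781-53473030 on the minus strand, Wif1 at chr10:121033754-121034003 on the plus strand, Fgf18 at chr11:33147401-33147650 on the minus strand and Cd34 at chr1:194938571-194938820 on the plus strand. Both strands were searched for 5 motifs that share no match with one another here, namely the GLI motif GACCACCC, the TCF/LEF motif CTTTGA, the homeodomain core TAATTA, the NFAT core GGAAAA and the TATA box TATAAA. Msx2 held TAATTA starting 187 bases before its start, a motif found in 4.84% of 32851 promoters. Wif1 held TATAAA on the opposite strand, 232 bases before its start, as did 12.4% of promoters on either strand. Fgf18 and Cd34 held none of the 5. Among the genes searched but not shown, a Lhx2 window and the Corin window held the NFAT core on the opposite strand. Crabp1 held none of the 5. The TCF/LEF motif occurs in 13.8%, the NFAT core in 20.4% and the GLI motif in 0.703% of promoters. The GC content was 61.6% for Msx2, 62.8% for Wif1, 77.2% for Fgf18 and 46.4% for Cd34. The median over the 32851 promoters was 52.4%. A match is a description of the letters and not a binding site.

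Shh, the secreted ligand of the hair matrix (chromosome 5, 28456840 to 28467101), had 0.442, 1.22, 0.644 and 0.432 CPM in Ctrl libraries 1 to 4, from 4, 11, 6 and 4 counts. In Model libraries it had 47.5, 45.2, 33.8 and 37.6 CPM, and in M+NSPCC1 libraries 54.8, 59.3, 61.1 and 74.1 CPM. The 3 groups did not overlap: Ctrl was close to 0, Model was high and M+NSPCC1 was higher still. The log2 fold change of Model over Ctrl was 5.89 (SE 0.26, edgeR adjusted p = 1.93e-08). The few Ctrl counts limit its size, with a 95% interval of 5.31 to 6.46.

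Msx2, a homeobox transcription factor of the matrix needed for hair shaft differentiation (chromosome 13, 53466881 to 53472780), had 2.88, 4.31, 1.29 and 3.99 CPM in Ctrl libraries. In Model libraries it had 334, 438, 222 and 337 CPM, and in M+NSPCC1 libraries 222, 302, 335 and 343 CPM. Every library of the 2 aged groups exceeded every Ctrl library, while the aged groups overlapped each other. At 6.74 (SE 0.34, edgeR adjusted p = 4.41e-08), its log2 fold change in Model over Ctrl was the largest of the 9.

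Lhx2, a LIM homeobox transcription factor of follicle progenitors (chromosome 2, 38339271 to 38369737), is also expressed in resting bulge cells. It had 12.1, 12.4, 10.8 and 17.5 CPM in Ctrl, 118, 95.7, 101.5 and 123 CPM in Model, and 126, 98.7, 113 and 120 CPM in M+NSPCC1 libraries. The aged groups overlapped and both lay above Ctrl, with a log2 fold change of 3.05 in Model over Ctrl (SE 0.16, edgeR adjusted p = 4.68e-08). Among the growth-phase genes Lhx2 had the smallest change and the highest mean in Ctrl, which overlapped that of Wif1.

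Corin and Wif1 are genes of the dermal papilla, the mesenchymal cluster at the follicle base. Corin, a serine protease that processes natriuretic peptide precursors (chromosome 5, 72299948 to 72504540), had 1.33, 1.66, 1.07 and 1.08 CPM in Ctrl, 49.8, 38.5, 29.0 and 50.7 CPM in Model, and 28.9, 44.3, 45.2 and 41.6 CPM in M+NSPCC1 libraries. It rose by 5.02 on the log2 scale in Model (SE 0.26, edgeR adjusted p = 4.87e-08), and Model 3 and M+NSPCC1 1 were the lowest aged libraries. Wif1, a secreted inhibitor that binds Wnt ligands (chromosome 10, 121034004 to 121100642), had 9.95, 14.6, 8.80 and 10.8 CPM in Ctrl, 141, 127, 79.3 and 112 CPM in Model, and 149, 147, 151.5 and 169 CPM in M+NSPCC1 libraries. It rose by 3.38 in Model (SE 0.20, edgeR adjusted p = 8.19e-08), and each M+NSPCC1 library stood above each Model library.

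Nfatc1, a transcription factor that keeps bulge stem cells from dividing (chromosome 18, 80606205 to 80713071), had 85.7, 82.3, 89.6 and 90.6 CPM in Ctrl libraries. In Model libraries it had 23.8, 15.9, 41.1 and 18.8 CPM, and in M+NSPCC1 libraries 33.6, 28.1, 20.6 and 20.1 CPM. The Ctrl libraries were close together and above all others, and Model 3 was the highest aged library. The log2 fold change of Model over Ctrl was -1.81 (SE 0.27, edgeR adjusted p = 7.25e-05).

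Fgf18, an FGF ligand of the resting follicle (chromosome 11, 33116970 to 33147400), had 13.7, 11.5, 16.3 and 11.4 CPM in Ctrl, 2.08, 1.95, 4.17 and 2.33 CPM in Model, and 1.83, 2.32, 2.64 and 2.84 CPM in M+NSPCC1 libraries. It fell by 2.33 on the log2 scale in Model (SE 0.29, edgeR adjusted p = 1.81e-05). Model 3 was again the highest of the aged libraries, and even it stayed far below the lowest Ctrl library.

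Cd34 encodes a surface sialomucin that marks mouse bulge stem cells and is also carried by endothelium and dermal and adipose mesenchyme (chromosome 1, 194938821 to 194961292). It had 986, 1018, 960 and 987 CPM in Ctrl libraries, with an SD of 0.03 on the log2 scale. It had 268, 168.5, 419.5 and 232 CPM in Model libraries, with an SD of 0.55, and 277, 398, 295 and 264 CPM in M+NSPCC1 libraries, with an SD of 0.27. The log2 fold change of Model over Ctrl was -1.86 (SE 0.24, edgeR adjusted p = 2.08e-05), and all 8 aged libraries lay below all Ctrl libraries.

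Crabp1, a cytoplasmic retinoic acid binding protein found in dermal fibroblasts and papilla (chromosome 9, 54764748 to 54773110), had 29.0, 25.0, 47.3 and 32.4 CPM in Ctrl libraries. It had 16.6, 16.8, 26.0 and 17.9 CPM in Model, and 21.3, 19.6, 15.0 and 19.9 CPM in M+NSPCC1 libraries. Model 3 stood above Ctrl 2, so the groups overlapped. Crabp1 passed with a fall of 0.79 on the log2 scale (SE 0.22, edgeR adjusted p = 0.00475), the smallest change of the 9, and 63.9% of tested genes changed by more. In all, 5 of 9 genes were higher and 3 lower without overlap between Model and Ctrl, beside background shares of 43.2% and 39.8%.

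**Figure D1:**
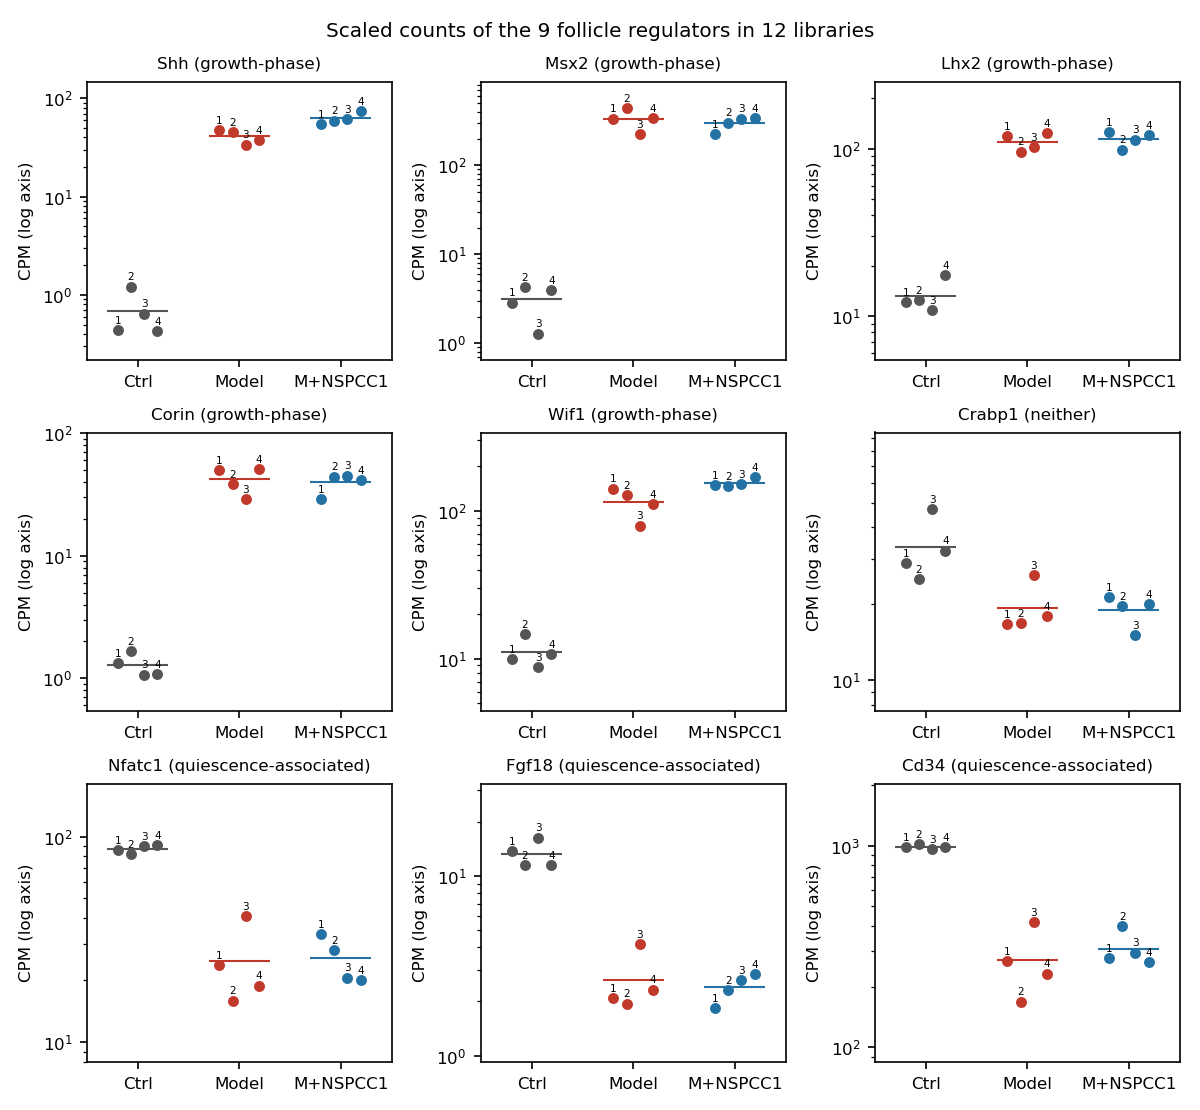
Scaled counts (CPM, log axis) of each gene in the 12 libraries. Points are libraries labelled by replicate number, horizontal lines are group means, and colours are the groups. Shh, Msx2, Lhx2, Corin and Wif1 lie higher in both aged groups than in Ctrl, Nfatc1, Fgf18 and Cd34 lie lower, and Model 3 is the Model library nearest to Ctrl for every gene but Lhx2.

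The order of the genes by FPKM, which is scaled by transcript length and so can be compared between genes, changed between Ctrl and aged skin. In Ctrl, Cd34 stood first at 235.4 ± 7.11 FPKM (SD, n = 4), followed by Crabp1 at 35.8, Nfatc1 at 10.7 and Fgf18 at 5.61 FPKM. The 5 growth-phase genes filled the lowest places, from Lhx2 at 3.59 FPKM to Corin at 0.155 and Shh at 0.147 FPKM; Lhx2 overlapped Wif1 there, and Corin overlapped Shh. In Model, Msx2 stood first at 106.6 ± 29.1 FPKM (SD, n = 4) with values that overlapped those of Cd34 at 72.8 FPKM. Wif1 at 35.2, Lhx2 at 34.4 and Crabp1 at 23.4 FPKM could not be ordered by their spread, and Shh reached 10.3 FPKM. Corin at 5.66 and Nfatc1 at 3.43 FPKM overlapped, and Fgf18 was last at 1.25 FPKM. The order in M+NSPCC1 was the same, with Msx2 at 98.6 and Cd34 at 85.2 FPKM still overlapping, while Wif1 at 48.4 stood clear of Lhx2 at 36.7 FPKM.

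To set the classes side by side in each library, the mean log2 CPM of the 3 quiescence-associated genes was subtracted from that of the 5 growth-phase genes. Ctrl libraries had differences of -5.02, -4.42, -5.36 and -4.79. Model libraries had 2.11, 2.46, 0.74 and 2.13, and M+NSPCC1 libraries 1.79, 1.76, 2.08 and 2.21. The sign was negative in 4 of 4 Ctrl and positive in 8 of 8 aged libraries. Where 0 falls depends on the levels of the genes chosen, so the sign does not rank the classes. In Model 3 the growth-phase mean was 6.15, beside 5.37 for Nfatc1, 2.125 for Fgf18 and 8.71 for Cd34 in log2 CPM. The positive sign of Model 3 thus rested on Fgf18. The mean differences were -4.90 ± 0.39, 1.86 ± 0.76 and 1.96 ± 0.22 (SD, n = 4 each), so Model libraries were the most spread and the 2 aged groups overlapped. The genes were chosen with their changes known, so this difference was not tested.

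**Figure D2:**
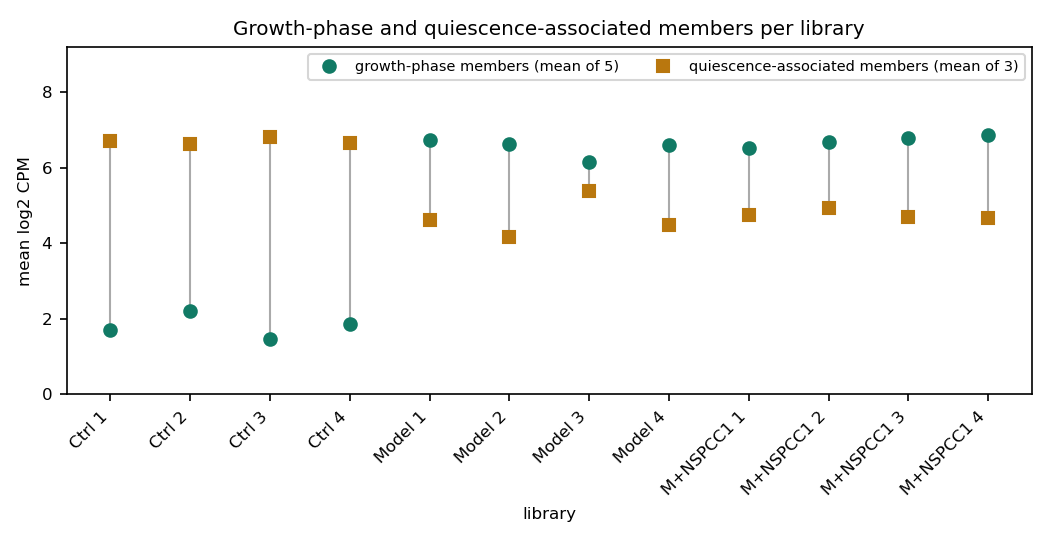
Mean log2 CPM of the 5 growth-phase genes (circles) and of the 3 quiescence-associated genes (squares) in each of the 12 libraries, joined by a grey line. The squares lie above the circles in all 4 Ctrl libraries and below them in all 8 aged libraries, with the shortest line among aged libraries in Model 3, where the difference was 0.74. Which symbol lies higher depends on the genes chosen.

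Model 3 stood apart from the other Model libraries in both classes. Against the mean of the other 3, its 5 growth-phase genes were all lower, from -0.14 for Lhx2 to -0.72 for Msx2 on the log2 scale. Its Nfatc1, Fgf18, Cd34 and Crabp1 values were higher by 1.09, 0.92, 0.94 and 0.60. The same library had the highest share of counts from skeletal muscle, endothelial, fibroblast, adipocyte and immune markers in its group and the lowest from hair shaft, melanocyte and cell cycle markers. Their part in its member values was not tested. Without Model 3 every member kept its call in Model against Ctrl, and over all single libraries left out the log2 fold change of Cd34 ranged from -2.15 to -1.65 and that of Wif1 from 3.27 to 3.54. In M+NSPCC1 1, Msx2 and Corin were lower than the mean of the other 3 by 0.55 and 0.59 and Nfatc1 higher by 0.57, and this library had the lowest hair shaft share of its group, 3.56%.

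Markers of other cell types moved with the members. All 22 hair shaft and inner root sheath genes rose in Model, and their share of the counts was 0.0140% to 0.0529% in Ctrl, 5.09% to 8.22% in Model and 3.56% to 6.42% in M+NSPCC1 libraries. All 11 melanocyte and all 22 cell cycle genes rose as well, among them Dct, a pigment enzyme, and Mki67, a marker of dividing cells. Beside the fall of Cd34, 11 of 12 endothelial genes fell, and their share was 0.122% to 0.147% in Ctrl, 0.0241% to 0.0652% in Model and 0.0341% to 0.0427% in M+NSPCC1. All 12 fibroblast genes fell, with shares of 2.61% to 3.12%, 0.655% to 1.71% and 0.896% to 1.23%. All 9 adipocyte genes fell, with shares of 2.05% to 2.63%, 0.487% to 1.27% and 0.636% to 0.814%. All 20 skeletal muscle genes fell, from 9.95% to 10.8% in Ctrl to 0.569% to 1.90% in Model and 1.31% to 2.03% in M+NSPCC1. Of 12 macrophage, mast cell and lymphoid genes 11 fell, and of 7 epidermal genes 3 fell and 4 rose. Erg, the other endothelial gene, passed as higher in Model but not with the replicate block, and it had 2.75, 3.80, 0 and 0 CPM in Model libraries. The only genes of these lists with no count in any Ctrl library were Erg among the endothelial and Krt2 among the epidermal genes, and each list gene had counts in both aged groups. Erg and Krt2 were named after their values were seen. The part of these markers in the member values was not tested, and in bulk tissue fewer cells of a type and less RNA per cell cannot be told apart.

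Within the hedgehog pathway, in which Shh binds the receptor Ptch1, frees Smo and activates Gli transcription factors, 12 of 15 other tested genes rose in Model and 3 fell. Their median log2 fold change was 1.50, also with Scube1, at 0 in Ctrl, set at its lower bound; the median of all 7638 tested genes was 0.255. Smo rose by 0.83, Gli1 by 1.87, Gli2 by 1.57 and Gli3 by 1.81. Gli1, an effector that is also a target of the pathway, went from 33.8 ± 6.98 CPM in Ctrl to 123.6 ± 21.9 CPM in Model (SD, n = 4 each). The 3 genes that fell, named after their values were seen, were Dhh, another ligand, at -2.30, Cdon, a co-receptor, at -2.31, and Disp1, which releases the ligand, at -2.22.

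All 18 other transcription factors of the matrix and follicle rose with Msx2 and Lhx2, with a median of 4.31, or 4.02 with Bnc2, at 0 in Ctrl, set at its lower bound. Dlx2, Dlx3 and Hoxc13 rose by 6.31, 5.56 and 5.88, and Sp6 by 3.43. Dlx3 and Hoxc13 are regulators of hair shaft genes. Of 9 other bulge and hair germ genes, 8 rose with a median of 2.42, against the direction of Nfatc1 and Cd34. Cdh3, the P-cadherin of hair germ and matrix, rose by 3.69, Vdr by 2.73, Tbx1 by 2.73 and Foxc1, a transcription factor linked to stem cell quiescence, by 1.69. S100a4 fell, by 1.69 (named after its value was seen). Most of these genes are expressed outside the bulge too, and the list is not specific to resting stem cells.

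Among Wnt genes, the pathway that Wif1 inhibits, 20 of 25 rose and 5 fell, with a median of 1.22. Lef1, a transcription factor of the pathway, rose by 5.19, the ligand Wnt5a by 2.26, the receptor Fzd1 by 1.67 and the inhibitor Nkd2 by 3.16. The genes that fell, named after their values were seen, were the ligand Wnt7b, the receptor Lrp4 and the secreted inhibitors Sfrp2, Sfrp4 and Frzb, by 0.50 to 2.47. Inhibitors of the pathway moved in both directions, with Wif1 and Nkd2 higher and Sfrp2, Sfrp4 and Frzb lower in Model. Sfrp1 and Nkd1, also inhibitors and named after their values were seen, rose by 0.98 and 1.32.

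Of 16 BMP pathway genes 13 rose and 3 fell, with a median of 0.99. The ligand Bmp7 rose by 1.54, the receptor Bmpr1a by 0.99, the decoy receptor Bambi by 4.29 and the target Id1 by 1.42. Of 12 other FGF genes 7 rose, 4 fell and 1 did not pass, with a median of 0.96. Fgf5, the ligand that ends follicle growth, rose by 6.61, Fgf22 by 2.88, Fgfr2 by 1.92 and Fgfr3 by 2.08, while Fgf18 fell.

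NFAT and calcineurin was the one pathway list here with a median below 0, at -0.70, and 6 of its 8 genes other than Nfatc1 fell. Nfatc4 fell by 0.96 and the calcineurin subunits Ppp3ca and Ppp3r1 by 1.02 and 0.43. Cdk4, a cell cycle kinase that Nfatc1 is known to repress in bulge cells, rose by 1.32, from 151 ± 14.2 to 376 ± 51.9 CPM (SD, n = 4 each). All 22 genes of the cell cycle list rose too, with a median of 2.53, and a link between Nfatc1 and Cdk4 was not tested. Skeletal muscle also expresses NFAT and calcineurin genes, and its markers fell beside them, with a part in these values that was not tested.

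Of 13 other dermal papilla genes 8 rose, 2 fell and 3 did not pass, with a median of 0.88. Cntfr, Hhip, Alx4 and Trps1 rose with Corin and Wif1, by 3.84, 2.66, 2.22 and 1.60. Of 13 retinoid genes other than Crabp1, 7 rose, 5 fell and 1 did not pass, with a median of 0.45. Lrat, which stores retinol as esters, rose by 3.26, Dhrs9 by 2.23 and Fabp5 by 1.08, and the receptor Rxrg fell by 3.43. Of 4 natriuretic peptide genes, the peptides Nppc and Nppb rose by 3.31 and 2.59, the receptor Npr1 fell by 1.99 and the protease Furin had 0.47 without passing.

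**Figure D3:**
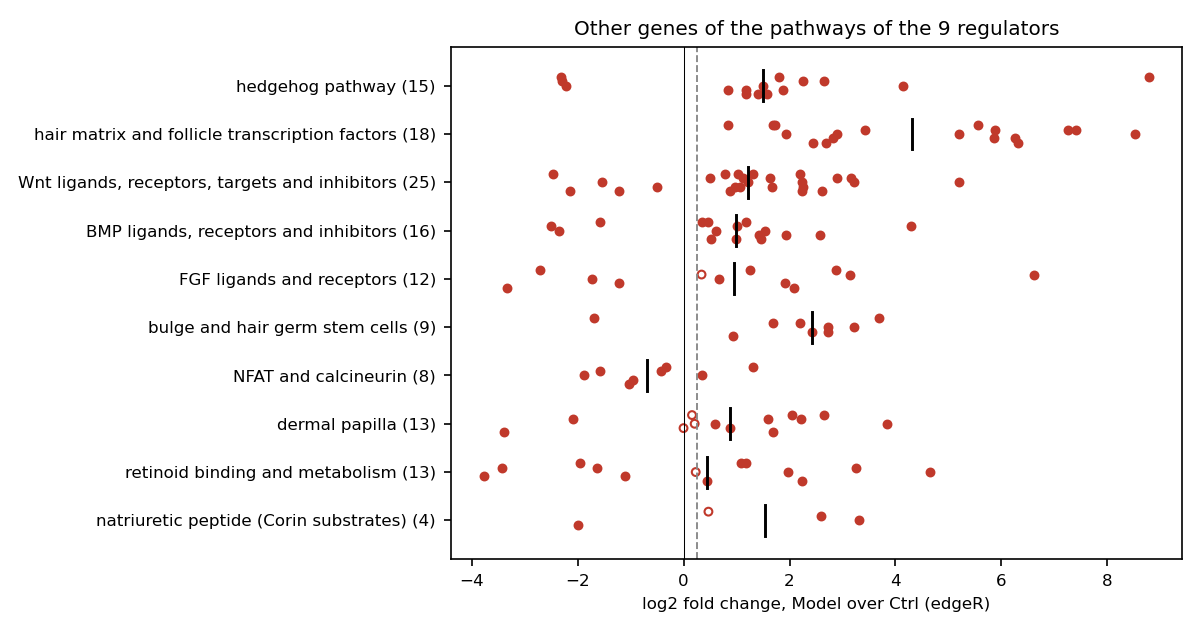
Log2 fold change of Model over Ctrl for the other tested genes of each pathway list, with the number of genes in parentheses. Filled points passed at an adjusted p under 0.05, open points did not, black bars are medians, and the dashed line is the median of all tested genes, 0.255. The hair matrix factors have the highest median, 4.31, and NFAT and calcineurin the lowest, -0.70.

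Setting M+NSPCC1 against Model addressed the effect of the extract in aged skin. None of the 9 genes passed, and no gene of the 7638 did (0% called by edgeR's quasi-likelihood test); at an unadjusted p under 0.05 there were 502 genes, or 6.57%, and DESeq2 called 74, or 0.95%. Of the 9 genes, Shh came closest. It was higher in each of the 4 M+NSPCC1 libraries than in any Model library, with a log2 fold change of 0.60 (SE 0.18, 95% interval 0.20 to 1.0). Its p was 0.00665 and its adjusted p 0.548 in edgeR, while DESeq2 gave an adjusted p of 0.0272. Its call thus depended on the tool, and DESeq2 called 0.205% of its tested genes higher. Leaving out single libraries gave 0.51 to 0.68 for Shh, with no call by edgeR.

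Wif1 was the other gene whose groups did not overlap, with a log2 fold change of 0.43 (SE 0.17, 95% interval 0.05 to 0.80). Its adjusted p was 0.684 by edgeR's quasi-likelihood test and 0.405 by DESeq2. Higher values without overlap occurred in 1.3% of all genes tested. The Model library lowest for Shh and Wif1 was Model 3. Without it the log2 fold change fell to 0.52 for Shh and to 0.28 for Wif1, the lowest value of Wif1 with any single library left out.

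The other 7 genes overlapped between M+NSPCC1 and Model. The log2 fold changes were -0.15 for Msx2 (95% interval -0.69 to 0.39), 0.06 for Lhx2 (-0.24 to 0.37) and -0.07 for Corin (-0.50 to 0.36). For the genes that had fallen in Model they were 0.04 for Nfatc1 (-0.54 to 0.62), -0.13 for Fgf18 (-0.75 to 0.50), 0.18 for Cd34 (-0.32 to 0.68) and -0.03 for Crabp1 (-0.50 to 0.45). These intervals hold 0 and also changes of up to 0.75 in size, for Fgf18, so equal levels are not shown. Msx2, Corin, Crabp1, Nfatc1 and Fgf18 changed sign in some of the alternative settings.

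**Figure D4:**
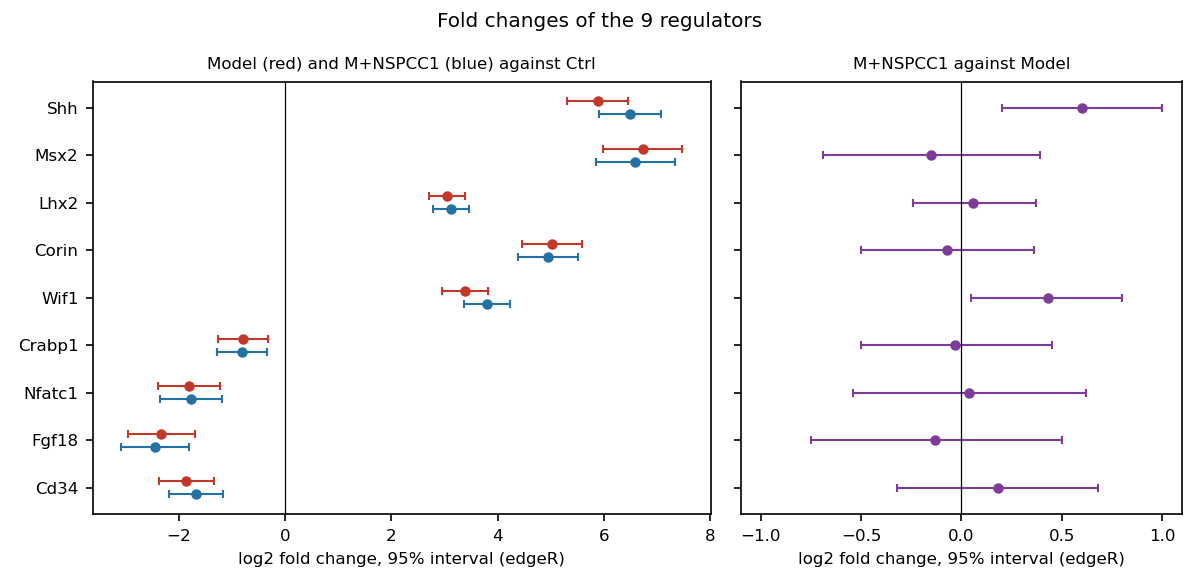
Log2 fold changes of the 9 genes with 95% intervals from edgeR. The left panel shows Model (red) and M+NSPCC1 (blue) against Ctrl, where no interval reaches 0, and the right panel shows M+NSPCC1 against Model on a narrower axis, where only the intervals of Shh, 0.20 to 1.0, and Wif1, 0.05 to 0.80, lie above 0.

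Of the 15 other hedgehog genes, 13 had a positive log2 fold change in M+NSPCC1 over Model, with a median of 0.23 beside 0.005 over all tested genes, and none passed. Marker lists also shifted without a gene passing: 19 of 20 skeletal muscle genes were positive with a median of 0.53, and 22 of 22 cell cycle genes with a median of 0.17. Without Model 3 these medians were 0.86 and 0.04, with 15 cell cycle genes positive, and the hedgehog median was 0.22. Hair shaft and inner root sheath genes went the other way, with 2 of 22 positive and a median of -0.33. Without Model 3 their median was -0.44, with 0 positive. Medians of the remaining marker lists lay between -0.11 for the immune genes and 0.23 for the epidermal genes. The part of these markers in the hedgehog values was not tested. Ptch1, the receptor and a target of the pathway, was picked out after its values were seen. It had 62.5, 35.3, 59.2 and 57.2 CPM in Ctrl, 107, 176.5, 96.4 and 104 CPM in Model, and 172, 197, 235 and 194 CPM in M+NSPCC1 libraries. Model 2 stood above M+NSPCC1 1, so the aged groups overlapped. Its log2 fold change in M+NSPCC1 over Model was 0.72 (SE 0.21). Its p was 0.00593 and its adjusted p 0.532 in edgeR, and DESeq2's adjusted p was 0.071. Gli1 and Hhip had 0.29 and 0.49, each with an interval that holds 0. Msx2, another growth-phase gene, had -0.15. The hair shaft share was 6.99% ± 1.35 in Model and 5.45% ± 1.28 in M+NSPCC1 (SD, n = 4 each). How these values relate to those of Shh and Ptch1 was not tested. In the other pathway lists none of the genes passed either, and medians lay between -0.13 for the retinoid genes and 0.29 for the dermal papilla genes.

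**Figure D5:**
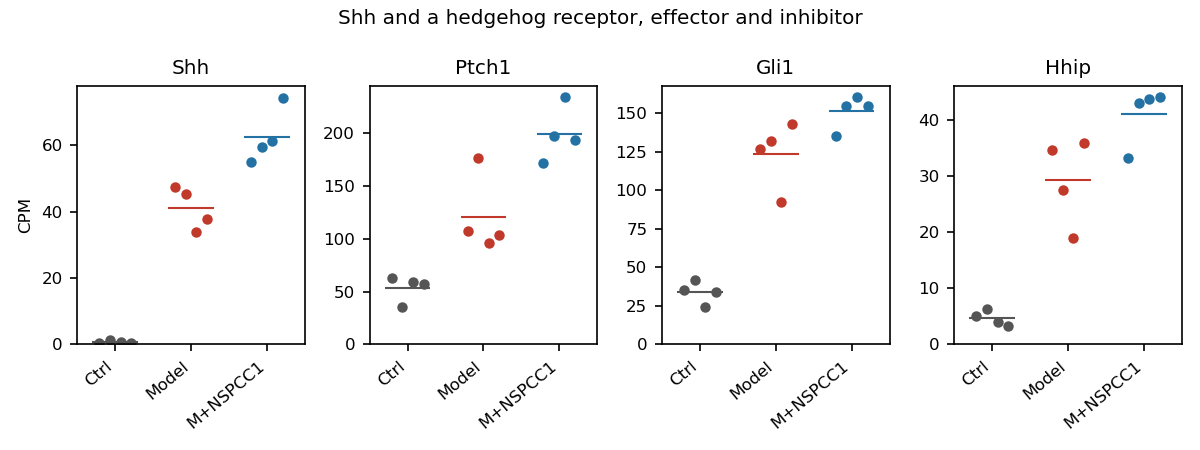
Scaled counts (CPM, axes from 0) of Shh, the receptor Ptch1, the effector Gli1 and the inhibitor Hhip. Points are the 4 libraries of each group and lines the group means. All 4 genes have higher means in M+NSPCC1 than in Model, and the points of the 2 aged groups are separate for Shh and overlap for the other 3.

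Against Ctrl, the 5 growth-phase genes rose and the other 4 genes fell in M+NSPCC1 skin, in a comparison that shares its Ctrl libraries with the first one. All 9 genes passed, beside a background of 93.2%, with 50.1% higher and 43.1% lower. Shh had a log2 fold change of 6.49, Msx2 6.59, Lhx2 3.12, Corin 4.95 and Wif1 3.80. Nfatc1 had -1.77, Fgf18 -2.45, Cd34 -1.68 and Crabp1 -0.82, with adjusted p from 2.99e-08 for Shh to 0.0038 for Crabp1 by edgeR's quasi-likelihood test. No gene overlapped between these groups, Crabp1 included, beside background shares of 47.4% higher and 42.5% lower.

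The profile of each gene over the 12 libraries was compared with that of all other tested genes, as the root mean square difference of log2 CPM after centring. Nearest to Shh was Dlx2 (0.376), nearest to Msx2 was Slc24a5 (0.285), a gene of pigment cells, and nearest to Lhx2 was Nppc (0.233). Corin was nearest to Prss53 (0.217), with Lef1 in the third place (0.303), and Wif1 to Mex3a (0.213). Among the genes that fell, Nfatc1 was nearest to Gpr146 (0.131), Fgf18 to Dgat2 (0.22), an enzyme of triglyceride synthesis, and Cd34 to Entpd2 (0.109), with Igf1 in the third place (0.119). Crabp1 was nearest to Tmem104 (0.168). These distances describe likeness over 12 libraries of 3 groups and rest mostly on the gap between Ctrl and aged skin.

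The tables split 4 of the 9 genes into several transcripts, without transcript names. All 4 Lhx2 transcripts rose in Model, by 2.91 to 3.39, and all 4 Nfatc1 transcripts fell, by 1.58 to 1.96. The longer of the 2 Cd34 transcripts held 26.2% ± 0.967 of the estimated counts of the gene in Ctrl, 27.6% ± 2.05 in Model and 25.7% ± 1.20 in M+NSPCC1 (SD, n = 4 each). Of the 3 Corin transcripts, 1 carried 76.0% ± 7.86 of the estimated counts in Model and 71.4% ± 9.87 in M+NSPCC1 libraries (SD, n = 4 each). This transcript was above 0 in 1 of the 4 Ctrl libraries. The longest Corin transcript was listed at 0 in all 4 Ctrl libraries. How reads were divided among transcripts of a gene is an estimate, and shares at the low Ctrl level of Corin carry little information.

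The 7902 genes are a part of the transcriptome, and their estimated counts per library, from 9717338 to 10952623, are not the sequencing depth. Scaling moved the median log2 fold change of all genes in Model over Ctrl from 0.255 with TMM to 0.083 with DESeq2's size factors and 0.432 with whole-library depth. The changes of the 9 genes in Model exceeded these shifts and kept their directions and calls under all 3. Among single genes, low counts limited Shh and Corin in Ctrl, with 4 to 11 and 10 to 15 counts per library, and Fgf18 in aged skin, with 20 to 42 counts.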

How the data were processed

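Total RNA of mouse skin (TRIzol) was turned into messenger RNA libraries, per the labels. The authors deposited an estimated count and an FPKM value (fragments scaled by transcript length and library size) per transcript and library, per the file headers. Named in the submitters' processing notes, with no roles, are the build mm10, RSEM 1.3.1, HISAT2 2.2.1 and DESeq2 1.34.0. Groups came from the sample titles. No libraries of a group were alike within counting noise (chi-square per degree of freedom at least 12.5).

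Counts were summed by gene ID and rounded (69.5% of genes had sums that were not whole, with a tolerance of 0.011 per transcript), and 14 symbols that had become dates were restored. Of 7902 gene IDs, 7881 matched RefSeq, which gave coordinates. R 4.3.3 with edgeR 4.0.16 fitted all 12 libraries together (quasi-likelihood, TMM, default filter by expression, 1 coefficient per group), with Benjamini-Hochberg adjustment over 7638 genes and a threshold of 0.05. Levels per class used log2 CPM with a prior count of 2. Marker and pathway lists were described by counts and medians. Lower bounds took 3 counts over the Ctrl group and cover counting error only.

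Alternatives were DESeq2 1.42.0 and its size factors, whole-library depth, other filters, 8 libraries in the fit, the replicate block, each library left out, transcripts, and limma 3.58.1 on log2(FPKM + 1) or log2(FPKM + 0.1). For the class difference they were another prior count, FPKM, Crabp1 in either class and each gene left out. The text names the 9 genes, the 4 genes with the smallest p in Model against Ctrl of each pathway list, marker genes among the 2 with the highest level of a list, others where the text says so, and for each of the 9 the nearest profiles out of 3. The members and lists were chosen with earlier results of these data known.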

Additional observations from a re-analysis of the deposited data

Results flagged for a closer look

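One value stood far from the others of its group. Crabp1 had 26.0 CPM in Model 3, against 16.6 to 17.9 CPM in the other 3 Model libraries. The gap exceeded Dixon's 95% limit for 4 samples. Of 30 groups of values checked this was 1, and chance alone marks about 1 in 20 groups.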

How the results depend on the processing

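The 5 growth-phase and 3 quiescence-associated genes passed in both comparisons with Ctrl under every alternative, and Crabp1 passed too. In M+NSPCC1 against Model, 1 growth-phase gene passed with DESeq2, Shh at 0.62 (adjusted p = 0.0272), and 0 did otherwise. With single libraries left out the counts of genes passed were 5 and 3 against Ctrl and 0 in M+NSPCC1 against Model. The class difference ranged from 6.56 to 7.13 for Model minus Ctrl, -0.27 to 0.30 for M+NSPCC1 minus Model and 6.70 to 7.01 for M+NSPCC1 minus Ctrl. With all libraries these were 6.76, 0.10 and 6.85. With Crabp1 as a growth-phase gene they were 5.84 for Model and 5.91 for M+NSPCC1 against Ctrl, and the latter was 6.52, 6.43 and 7.30 with Shh, Msx2 or Lhx2 left out.

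In M+NSPCC1 against Model, 5 genes that did not pass changed sign. Leaving out single libraries gave -0.30 to 0.02 for Msx2, -0.21 to 0.06 for Corin, -0.09 to 0.15 for Crabp1, -0.12 to 0.39 for Nfatc1 and -0.24 to 0.18 for Fgf18. Msx2 was 0.02 without Model 2. Corin was 0.02, 0.03 and 0.06 without Model 1, Model 4 or M+NSPCC1 1. Crabp1 was 0.02 with depth scaling, the replicate block and each FPKM setting, 0.15 without Model 3 and 0.07 without M+NSPCC1 3. Nfatc1 was -0.12, -0.07, -0.12 and -0.01 without Model 2, Model 4, M+NSPCC1 1 or M+NSPCC1 2, and Fgf18 was 0.18 without Model 3. The cause was not tested.

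Replicate numbers did not pair the libraries: deviations of same-numbered libraries correlated between -0.162 and 0.119. With the replicate block 6823 genes passed in Model against Ctrl, beside 6913 without it, no call of the 9 genes changed, 0 endothelial genes in place of 1 were higher, and Shh had 5.89 and 0.61 in the first 2 comparisons. Of the genes that passed in Model against Ctrl, 54.3% were higher, 49.2% with DESeq2's size factors and 57.1% with whole-library depth. In M+NSPCC1 against Model, edgeR passed 0 genes, DESeq2 74, a fit of only the 8 libraries 2, limma with no filter 2, and edgeR 2 without Model 3 and 4 without M+NSPCC1 1. On the log2(FPKM + 1) scale Shh in Model over Ctrl was 3.29, which understates a low gene.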
